A study of Mus musculus with 8 samples.

Results

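The proteasome is the barrel-shaped protease that degrades most short-lived, damaged and ubiquitin-tagged proteins of a cell, and its transcripts were followed here in RAW264.7 cells, an established mouse macrophage line. Members were all genes of the count table whose symbol begins with Psma, Psmb, Psmc, Psmd, Psme, Psmf or Psmg, pseudogenes being excluded by their symbol, which gave 51 of 22013 genes. They comprised 8 genes of the alpha ring, 7 of the constitutive beta ring, the thymus subunit Psmb11, 5 immunoproteasome genes, 9 genes of the base, 8 of the lid, 7 assembly factors and 3 other regulators. The remaining 3, Psmc3ip, Psme3ip1 and Psme2b, matched by name and are not counted as subunits of the particle. The question was whether 24 hours with recombinant follistatin-like 1 (rFSTL1) altered this machinery.

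FSTL1 is a secreted glycoprotein, and the treated cells received it at 100 ng/mL for 24 h. The control cells received PBS, and each group held 4 libraries of poly(A) RNA. All 8 libraries came from this line, and the labels give no genetic change in either group. The labels do not say whether libraries of a group came from separate cultures, so the p-values measure the spread between these libraries, which may be technical. A cell line has no tissue environment, and the labels give no time for the PBS exposure.

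The core particle, called 20S, is a stack of alpha and beta rings. The alpha subunits gate its entrance, and the proteolytic sites lie inside, on the beta subunits encoded by Psmb6 (caspase-like), Psmb7 (trypsin-like) and Psmb5 (chymotrypsin-like). The 19S regulatory particle caps the core: its base holds a ring of ATPases that unfolds substrates, and its lid removes ubiquitin. In cells exposed to interferon-gamma, the products of Psmb9, Psmb10 and Psmb8 replace the 3 constitutive proteolytic subunits during assembly, which gives the immunoproteasome. Its peptides suit presentation on MHC class I, and macrophages are known to express it. The PA28 activator, encoded by Psme1 and Psme2, is another cap with a role in antigen processing.

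Total counts were between 15183118 and 20234477 in the PBS libraries and between 15062023 and 19260960 in the rFSTL1 libraries. All 7 macrophage markers (Csf1r, Adgre1, Cd68, Lyz2, Itgam, Fcgr1 and Spi1) were at 1 CPM or more in every library, CPM being the count scaled to the size of the library. Their summed level was 3543 to 3720 CPM with PBS and 3542 to 3784 CPM with rFSTL1, whereas no marker of T cells, B cells, fibroblasts, endothelium, hepatocytes or epithelium reached 1 CPM in every library and none of these 6 lists summed to more than 1.09 CPM. The rFSTL1 libraries differed among themselves. In 14.5% of the 10748 tested genes rFSTL1 replicates 3 and 4 were both above the other 6 libraries, and in 15.5% they were both below them. Across 10719 genes with a transcript model, the difference between these 2 replicates and the other rFSTL1 replicates went with the GC content of the transcript, with a Spearman's rho of 0.67. Genes are not independent replicates, and these values share libraries, depth and base composition.

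No proteasome gene passed the test between rFSTL1 and PBS. Values are for whole cultures, in which fewer expressing cells and less RNA per cell cannot be told apart. Of the 51 members, 49 had enough counts to be tested, and 0 had an adjusted p under 0.05 in the edgeR quasi-likelihood fit, adjusted after Benjamini and Hochberg over all tested genes. The same fit called 37 of all tested genes, or 0.344% (0.326% higher and 0.0186% lower with rFSTL1). At an unadjusted p under 0.05 there were 7 members (14.3%), 6 higher and 1 lower with rFSTL1, against 15.9% of all tested genes by the same edgeR test (8.29% higher and 7.56% lower). DESeq2 called 1 member, Psmb6, against 2.39% of the 8049 genes to which it gave an adjusted p, which did not include Psmb9, Psmb11 and Psme2b. The limma voom fit called Psmb6 and Psmg4, against 4.22% of all tested genes. The median log2 fold change of the tested members was 0.02, beside 0.01 over all tested genes, and 31 of the 49 members (63.3%) had a positive value, beside 52% of all tested genes.

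The intervals were narrow. For 47 of the 49 tested members (95.9%) the 95% interval of the fold change lay wholly within 1.25-fold in either direction. The same held for 70.5% of all tested genes, and for 95.4% of the 2892 genes at a similar level (57.1 to 175 CPM, the interquartile range of the members). The exceptions were Psmg4, with an interval from 1.06-fold to 1.36-fold, and Psme2b, from 0.714-fold to 1.16-fold. The median SD between libraries, on the log2 scale, was 0.048 with PBS and 0.069 with rFSTL1 among the members. It was 0.052 and 0.078 among genes at a similar level.

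**Figure D1:**
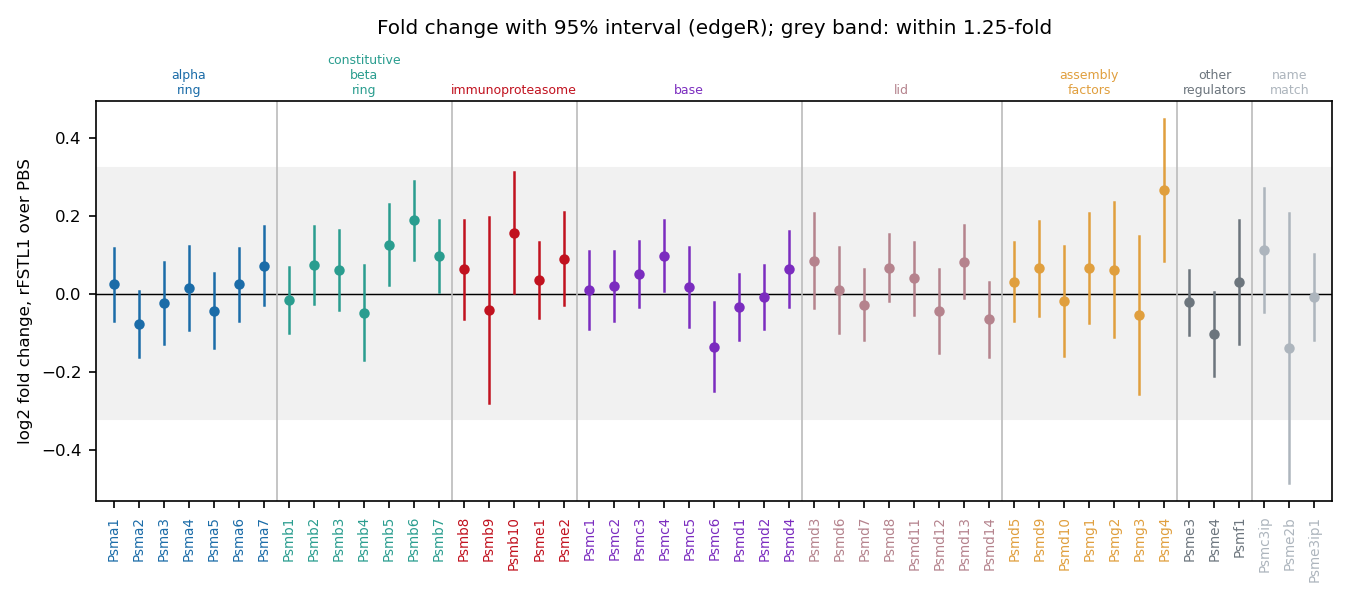
Log2 fold change of each tested proteasome gene (rFSTL1 over PBS; points) with its 95% interval (lines) from edgeR; colours and headings give the classes, and the grey band marks changes within 1.25-fold. Of the 49 intervals, 47 lie inside the band, and those of Psmg4 and Psme2b leave it.

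The summed level of all members was 6548, 6465, 6356 and 6376 CPM in PBS replicates 1 to 4. It was 6503, 6516, 6530 and 6469 CPM in rFSTL1 replicates 1 to 4. The group means were 6436 ± 88.3 and 6504 ± 26.4 CPM (SD, n = 4), and every rFSTL1 library fell within the PBS range.

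In 3 of 49 members (6.12%) the groups did not overlap, beside 8.16% of all tested genes (4.63% higher and 3.53% lower with rFSTL1). These were Psmb6 and Psmg4, higher in all 4 rFSTL1 libraries, and Psma2, lower in all 4. Psma2, an alpha ring subunit, was outside the rule for naming genes and is given because of this count. It stood at 159, 159, 156 and 160 CPM with PBS and at 144, 154, 150 and 152 CPM with rFSTL1. Its log2 fold change was -0.08 (SE 0.04, edgeR adjusted p = 0.347).

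**Figure D2:**
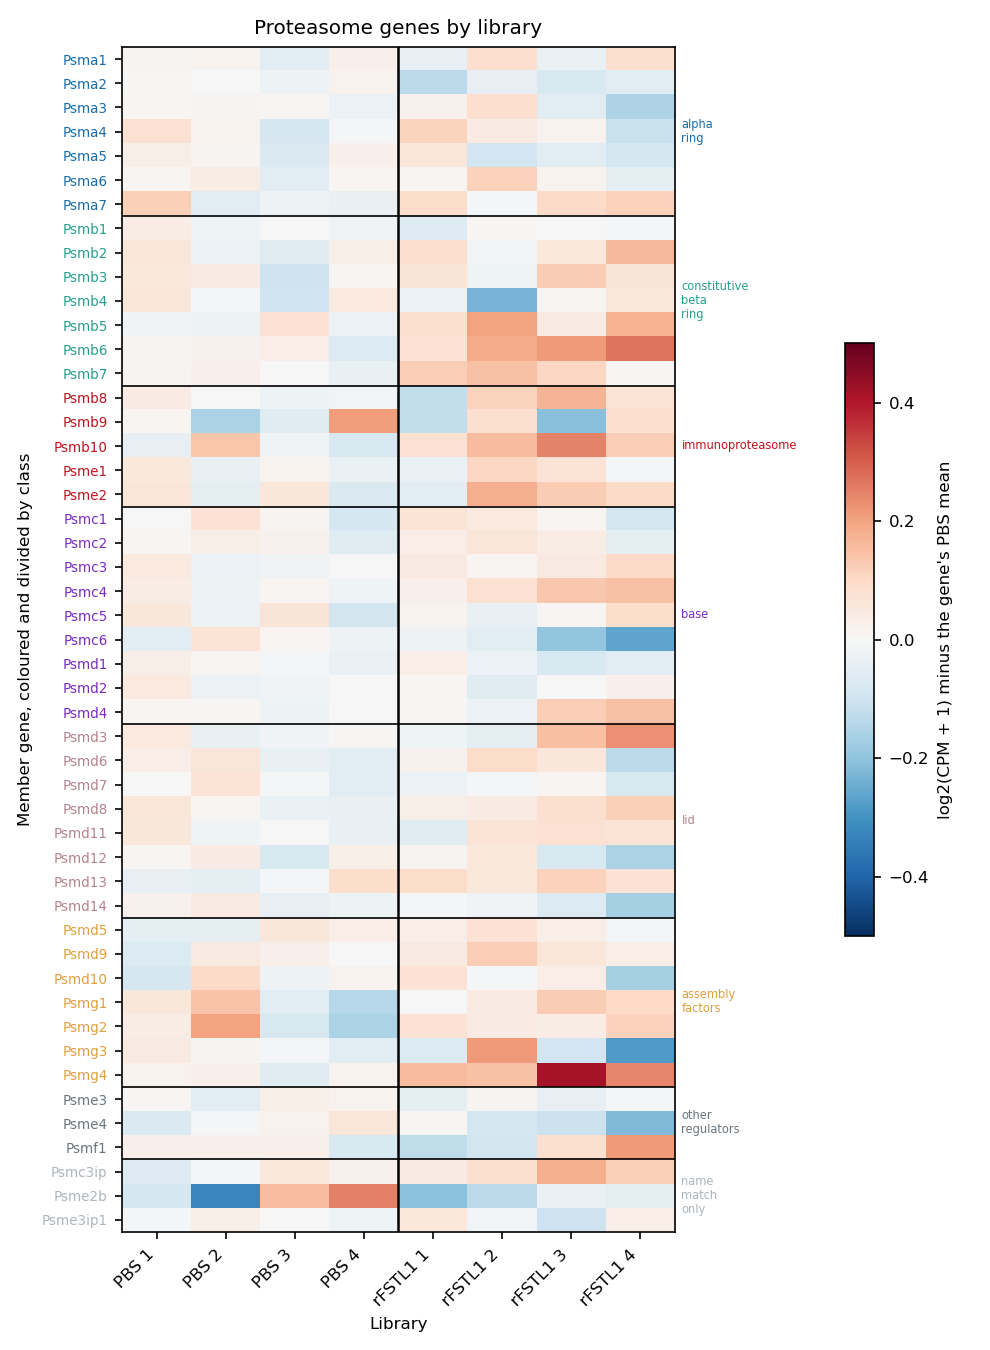
Level of each tested member in each library, as log2(CPM + 1) minus the mean of the 4 PBS libraries of that gene; red is higher, blue lower, and lines divide the classes. Psmb6 and Psmg4 are red and Psma2 is blue in all 4 rFSTL1 libraries, and the groups overlap in the other 46 genes.

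No gene of the alpha ring passed the test. Of its 8 genes, Psma8, a subunit known from the testis, had 0 counts in all 8 libraries, where the count floor is 3. The other 7 had log2 fold changes from -0.08 (Psma2) to 0.07 (Psma7) with a median of 0.01, 4 of them positive. The lowest adjusted p in the ring by edgeR was 0.347. Relative to the PBS mean, the median log2 level of the ring was 0.02 and 0.04 in rFSTL1 replicates 1 and 2 and -0.03 and -0.06 in replicates 3 and 4. The mean level per kb of transcript was 142 ± 4.03 CPM per kb with PBS and 143 ± 2.74 with rFSTL1 (SD, n = 4), and the groups overlapped.

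Alpha subunits enter the particle in equal numbers, but their transcripts were unequal. With PBS, the level per kb ran from 54.4 CPM per kb for Psma2 to 208 for Psma4, a 3.82-fold range. Ranges were narrower in the rest of the constitutive particle: 2.21-fold in the constitutive beta ring (from 89.7 for Psmb1 to 199 for Psmb6), 1.99-fold in the base and 3.73-fold in the lid (from 50.1 for Psmd13 to 187 for Psmd8). These genes are named as the ends of their class, after their values were seen, and the levels depend on the 1 transcript chosen for each gene.

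The constitutive beta ring held the lowest p among the members. Psmb6 (ENSMUSG00000018286), the caspase-like subunit, stood at 160, 161, 162 and 151 CPM in PBS replicates 1 to 4 and at 167, 180, 184 and 192 CPM in rFSTL1 replicates 1 to 4. All rFSTL1 libraries were above all PBS libraries. The means were 158 ± 5.09 and 181 ± 10.5 CPM (SD, n = 4), which gave 0.19 on the log2 scale (SE 0.05). It had an unadjusted p of 0.00114 and an adjusted p of 0.0993 by edgeR, and an exact permutation p of 0.0286, the smallest that 70 assignments of 4 against 4 can give.

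The call for Psmb6 moved with the method. It passed the threshold with DESeq2 (adjusted p = 0.0184), with limma voom (adjusted p = 0.0227) and, in edgeR, without rFSTL1 replicate 1 (adjusted p = 0.0433), where 0.914% of all genes were called. With rFSTL1 replicates 3 and 4 left out its log2 fold change was 0.13 (edgeR adjusted p = 0.335, with 0 members and 0.314% of all genes called), and with the trend over transcript length and GC content removed it was 0.05 (edgeR adjusted p = 0.515). The trend was fitted in each library without regard to group. A treatment difference that goes with length or GC content would be removed with it, here and in the values below.

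Psmb5, the chymotrypsin-like subunit and main target of bortezomib, stood at 82.4, 81.8, 87.7 and 81.7 CPM with PBS and at 88.3, 96.1, 85.9 and 94.1 CPM with rFSTL1. PBS replicate 3 lay above rFSTL1 replicate 3, so the groups overlapped. The log2 fold change was 0.13 (SE 0.05, edgeR adjusted p = 0.239, exact permutation p = 0.0571), and it was -0.0054 with the length and GC trend removed. Psmb7, the trypsin-like subunit, stood at 132, 133, 130 and 127 CPM with PBS and at 142, 145, 140 and 131 CPM with rFSTL1. Only rFSTL1 replicate 4 fell inside the PBS range, and the log2 fold change was 0.10 (SE 0.04, edgeR adjusted p = 0.293, exact permutation p = 0.0857). It was 0.06 with the length and GC trend removed.

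The other 4 subunits of this ring are structural. Psmb1, Psmb2, Psmb3 and Psmb4 had log2 fold changes of -0.02, 0.07, 0.06 and -0.05, all with overlapping groups. Over the ring, 5 of 7 genes had positive values and the median was 0.07. Its mean level was 143 ± 2.71 CPM per kb with PBS and 151 ± 4.24 with rFSTL1 (SD, n = 4), with ranges of 140 to 147 and 146 to 156 that overlapped at their ends.

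Sequence before the start of Psmb6, Psmb5 and the base ATPase gene Psmc6, which is described with the base, is shown because proteasome genes are known targets of NRF1 and NRF2, factors that bind antioxidant response elements. RefSeq (GRCm38.p6) gave a window of 250 bases before the start for 43 of the 51 members. The core letters of that element, TGACNNNGC on either strand, with N any base, lay in the windows of 5 member genes (Psmb5, Psmb6, Psmc6, Psmd12 and Psmd9), or 10.6% of member windows against 10.2% of all 32851 windows. The following 120-base stretches hold the match in capitals, read 5′ to 3′ on the strand of the gene. In Psmc6 the element is on the opposite strand, so the capitals are its reverse complement.
Psmb6, chr11:70525237-70525356, plus strand: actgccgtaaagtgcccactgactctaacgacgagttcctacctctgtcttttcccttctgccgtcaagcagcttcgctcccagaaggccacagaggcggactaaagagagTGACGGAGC
Psmb5, chr14:54617996-54618115, minus strand: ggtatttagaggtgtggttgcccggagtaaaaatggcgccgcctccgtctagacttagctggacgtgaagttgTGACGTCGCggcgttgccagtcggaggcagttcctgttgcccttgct
Psmc6, chr14:45329587-45329706, plus strand: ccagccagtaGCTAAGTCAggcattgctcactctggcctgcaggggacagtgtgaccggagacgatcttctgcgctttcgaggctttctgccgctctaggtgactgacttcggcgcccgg

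The match ended directly before the start in Psmb6, lay 47 to 39 bases before it in Psmb5 and 227 to 219 bases before it in Psmc6. Psmb6 and Psmb5 had positive fold changes and Psmc6 a negative one, and none passed the edgeR test. The CCAAT box, another common promoter element, searched on both strands, lay in 34.0% of member windows and 33.8% of all windows. Of 2 interferon elements searched, the interferon-stimulated response element (a pair of GAAA blocks with any 2 bases between them, on either strand) lay in 6.38% of member windows and 2.98% of all windows, in Psmb3, Psmd4 and Psmd9. The gamma-activated site (TTCNNNGAA, which reads alike on both strands) lay in 4.26% and 7.02%, in Psmb8 and Psmg1. Matches of different elements did not overlap in the member windows. These are matches of letters, with no measurement of binding. Nfe2l1, which encodes NRF1, was at 188, 182, 196 and 185 CPM with PBS and at 188, 176, 188 and 204 CPM with rFSTL1, a log2 fold change of 0.01 (edgeR adjusted p = 0.931). Nfe2l2, which encodes NRF2, was outside the rule for naming genes. It was at 219, 224, 227 and 217 CPM with PBS and at 218, 197, 213 and 211 CPM with rFSTL1. Its log2 fold change was -0.08 (edgeR adjusted p = 0.368), and rFSTL1 replicate 1 lay inside the PBS range with the others below it.

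The immunoproteasome genes were present in both groups, and each inducible catalytic gene was lower per kb than its constitutive counterpart. With PBS the level per kb was 35.1 CPM per kb for Psmb8, 16.9 for Psmb10, 8.02 for Psmb9, 85.9 for Psme1 and 74.6 for Psme2, a 10.7-fold range. The 3 inducible catalytic genes together made up 12.95 ± 0.369% of the transcripts per kb of the 6 catalytic genes with PBS and 12.4 ± 0.497% with rFSTL1 (SD, n = 4). These shares overlapped between the groups.

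**Figure D3:**
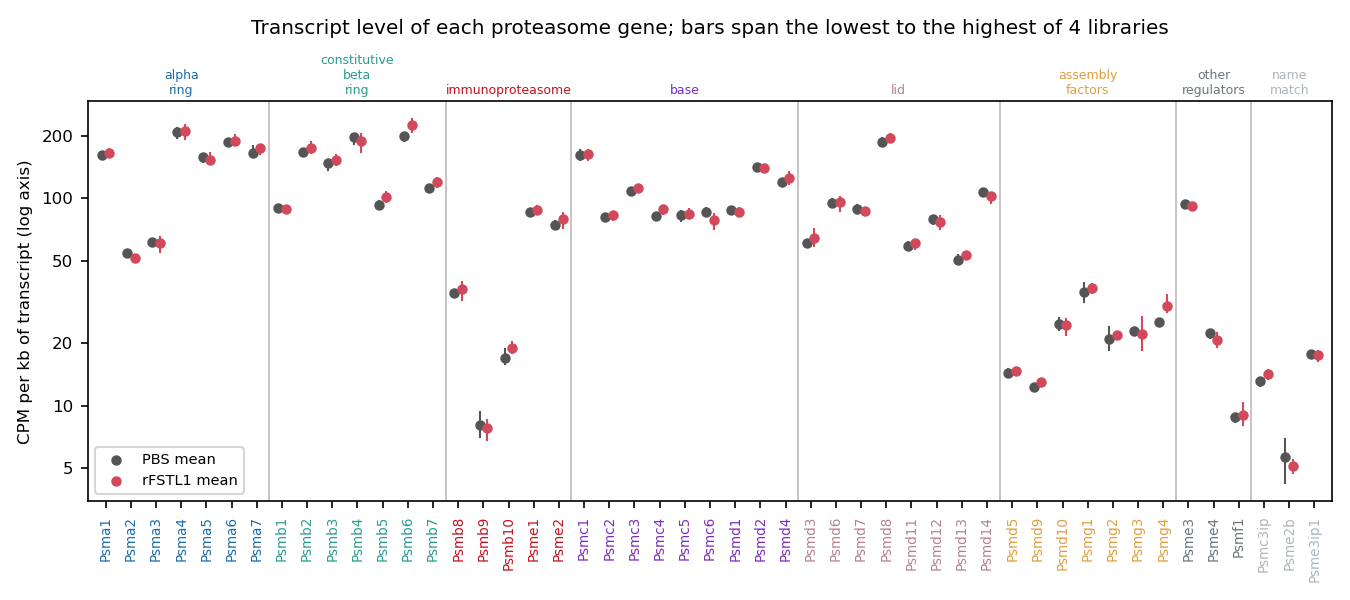
Mean level of each tested member in CPM per kb of transcript on a log axis, with PBS in grey and rFSTL1 in red; the vertical bars span the lowest to the highest of the 4 libraries, and headings give the classes. Inducible catalytic genes and assembly factors sit below the constitutive core, and PBS and rFSTL1 lie side by side.

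The share differed by position in the core. Psmb8 made up 27.5 ± 0.941% of Psmb8 plus Psmb5 with PBS and 26.5 ± 1.93% with rFSTL1. For Psmb10 with Psmb7 it was 13.1 ± 0.658% and 13.6 ± 0.739%, and for Psmb9 with Psmb6 it was 3.89 ± 0.570% and 3.32 ± 0.317% (SD, n = 4 each). The groups overlapped in all 3 shares. Estimated counts of Psmb7 were not whole in 8 libraries and those of Psmb9 in 5. How their reads were shared is not stated, and the shares that include them carry that uncertainty.

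Psmb8, the inducible chymotrypsin-like subunit, stood at 58.7, 57.2, 56.1 and 56.5 CPM with PBS and at 52.4, 61.7, 64.3 and 59.9 CPM with rFSTL1. Replicates 2 to 4 were above all PBS libraries and replicate 1 was below them. The log2 fold change was 0.06 (SE 0.06, edgeR adjusted p = 0.632), and it was 1.69e-05 without rFSTL1 replicates 3 and 4 and -0.0190 with the length and GC trend removed.

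Psmb10, the inducible trypsin-like subunit, stood at 21.5, 24.5, 21.9 and 20.9 CPM with PBS and at 23.45, 24.9, 26.5 and 24.2 CPM with rFSTL1. PBS replicate 2 lay among the rFSTL1 libraries. The log2 fold change was 0.16 (SE 0.07, edgeR adjusted p = 0.311, exact permutation p = 0.0857), and it was 0.05 with the length and GC trend removed. Psmb9, the inducible counterpart of Psmb6, rested on 147 to 224 counts per library and stood at 10.9, 9.58, 10.3 and 12.6 CPM with PBS and at 9.82, 11.5, 9.21 and 11.5 CPM with rFSTL1. The groups were interleaved, and the log2 fold change was -0.04 (SE 0.11, edgeR adjusted p = 0.884), or -0.13 with the length and GC trend removed. The sign turned without PBS replicate 4 (0.0293) or without rFSTL1 replicate 3 (0.0185).

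**Figure D4:**
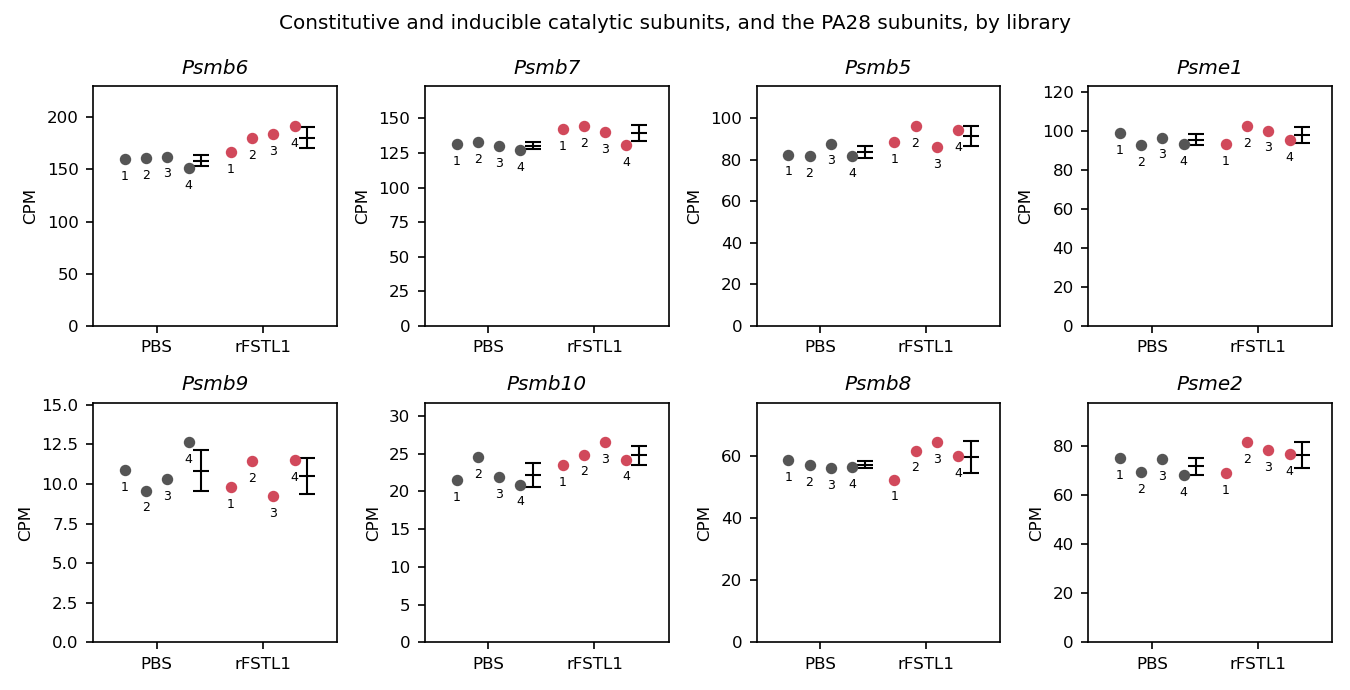
CPM of the constitutive catalytic genes above their inducible counterparts, and of the PA28 genes Psme1 and Psme2, in each library; digits are replicate numbers, and the cross to the right of each group is the mean with its SD. In Psmb6 all 4 rFSTL1 libraries lie above the PBS libraries, and in the other 7 genes the groups overlap.

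The PA28 genes were higher per kb than the inducible catalytic genes. Psme1 stood at 99.1, 92.9, 96.6 and 93.4 CPM with PBS and at 93.4, 103, 100.2 and 95.2 CPM with rFSTL1, a log2 fold change of 0.03 (SE 0.05, edgeR adjusted p = 0.743). Psme2 stood at 74.9, 69.4, 74.6 and 68.1 CPM with PBS and at 69.0, 81.4, 78.3 and 76.6 CPM with rFSTL1, a log2 fold change of 0.09 (SE 0.06, edgeR adjusted p = 0.450). In both, rFSTL1 replicate 2 was the highest library and replicate 1 was inside the PBS range. With the length and GC trend removed the values were -0.0630 for Psme1 and -0.00051 for Psme2. The ratio of Psme1 to Psme2 per kb was 1.15 ± 0.0273 with PBS and 1.11 ± 0.0419 with rFSTL1 (SD, n = 4), with overlap.

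Over the 5 immunoproteasome genes the median log2 fold change was 0.06, with 4 positive values. The class median of each library, relative to the PBS mean, was 0.04, -0.04, -0.02 and -0.03 with PBS. It was -0.05, 0.11, 0.13 and 0.08 in rFSTL1 replicates 1 to 4, so replicate 1 was below and the others above all PBS libraries. The median of the edgeR fold changes was 0.11 without rFSTL1 replicate 1, 0.04 without rFSTL1 replicates 3 and 4, and -0.0190 with the length and GC trend removed.

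In the RefSeq gene order Psmb8 lies between Tap1 and Tap2, which encode the peptide transporter, and Psmb9 between H2-DMb1 and Tap1.

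Genes that act with the immunoproteasome in antigen processing were followed through 9 listed genes (Tap1, Tap2, Tapbp, Erap1, B2m, H2-K1, H2-D1, Nlrc5 and Irf1). None had an adjusted p under 0.05 by edgeR (0.344% of all tested genes had one), 3 were higher at an unadjusted p under 0.05 (8.29% of all tested genes were), and the median log2 fold change was 0.07. H2-K1 was called by DESeq2, by limma voom, by edgeR on all genes with a count and without rFSTL1 replicate 1, H2-D1 by limma voom and without rFSTL1 replicate 1, and B2m with the length and GC trend removed. H2-K1, an MHC class I heavy chain of a gene family whose members can share reads, stood at 44.9, 44.7, 40.1 and 42.1 CPM with PBS and at 44.9, 61.9, 55.7 and 51.3 CPM with rFSTL1. Replicate 1 was again at the PBS level while replicates 2 to 4 were above it, and the log2 fold change was 0.32 (SE 0.08, edgeR adjusted p = 0.0993).

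H2-D1, another heavy chain, stood at 194, 193, 191 and 197 CPM with PBS and at 197, 224, 216 and 225 CPM with rFSTL1. The groups did not overlap, although rFSTL1 replicate 1 lay next to the highest PBS library. Its log2 fold change was 0.16 (SE 0.05, edgeR adjusted p = 0.146). B2m, the light chain, stood at 675, 654, 660 and 624 CPM with PBS and at 702, 799, 698 and 674 CPM with rFSTL1. Only replicate 4 fell inside the PBS range for B2m, and the log2 fold change was 0.14 (edgeR adjusted p = 0.224).

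In the 19S particle, 17 base and lid genes were tested and 11 had positive fold changes, with a median log2 fold change of 0.02. In none of them did the groups stand apart. The median was -0.01 without PBS replicate 4 and -0.01 with the length and GC trend removed.

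The base had fold changes from -0.14 to 0.10, and its ends were both ATPases. Psmc6 stood at 184, 201, 193 and 188 CPM with PBS and at 188, 184, 167 and 159 CPM with rFSTL1. Replicates 3 and 4 were the lowest of all libraries, and replicate 1 lay inside the PBS range. The log2 fold change was -0.14 (SE 0.05, edgeR adjusted p = 0.246, exact permutation p = 0.0571). It was -0.04 without rFSTL1 replicates 3 and 4 and 0.0104 with the length and GC trend removed.

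Psmc4 stood at 122, 117, 120 and 117 CPM with PBS and at 121, 125, 131 and 132 CPM with rFSTL1. Here replicates 3 and 4 were the highest, replicate 1 lay below PBS replicate 1, and the log2 fold change was 0.10 (SE 0.04, edgeR adjusted p = 0.286, exact permutation p = 0.0571). It was 0.05 without rFSTL1 replicates 3 and 4 and 0.03 with the length and GC trend removed. The other base genes, Psmc1, Psmc2, Psmc3, Psmc5, the scaffold genes Psmd1 and Psmd2, and the ubiquitin receptor Psmd4, had log2 fold changes from -0.03 to 0.06. Psmd2 was the most abundant member, with a mean of 419 CPM with PBS and 417 CPM with rFSTL1. The mean level of the base ATPases was 101 CPM per kb in both groups.

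The lid genes Psmd3, Psmd6, Psmd7, Psmd8, Psmd11, Psmd12, Psmd13 and Psmd14 had log2 fold changes from -0.07 to 0.08, with a median of 0.03 and 5 positive values. The lowest edgeR adjusted p among them was 0.373, for Psmd13. Psmd14, the deubiquitinase of the lid, had the value of -0.07, with means of 165 ± 4.54 CPM with PBS and 158 ± 7.80 CPM with rFSTL1 (SD, n = 4).

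The 7 assembly factors were expressed at lower levels per kb than the tested genes of the alpha ring, the constitutive beta ring, the base and the lid, from 12.3 CPM per kb for Psmd9 to 35.2 for Psmg1 with PBS. Psmg1 to Psmg4 encode chaperones of the core, and Psmd5, Psmd9 and Psmd10 encode chaperones of the base. Their median log2 fold change was 0.06, with 5 positive values. Psmg4 had the largest fold change of all tested members. It stood at 14.2, 14.3, 13.4 and 14.2 CPM with PBS and at 15.8, 15.6, 19.0 and 16.8 CPM with rFSTL1.

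All rFSTL1 libraries of Psmg4 were above all PBS libraries, on 216 to 364 counts per library. The log2 fold change was 0.27 (SE 0.09, edgeR adjusted p = 0.179, exact permutation p = 0.0286). It passed the threshold with limma voom (adjusted p = 0.0360). Without rFSTL1 replicates 3 and 4 the value was 0.16 (edgeR adjusted p = 0.622), and with the length and GC trend removed it was 0.10 (edgeR adjusted p = 0.677). The other chaperones, Psmg1, Psmg2, Psmg3, Psmd5, Psmd9 and Psmd10, had log2 fold changes from -0.05 to 0.07.

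The other regulators were 2 activators and an inhibitor outside the 19S particle. Psme3 encodes the nuclear PA28 gamma and stood at 250, 240, 253 and 252 CPM with PBS and at 240, 251, 241 and 247 CPM with rFSTL1, a log2 fold change of -0.02 (SE 0.04, edgeR adjusted p = 0.812). Psme4, which encodes the activator PA200, stood at 138, 144, 147 and 151 CPM with PBS and at 145, 136, 134 and 124 CPM with rFSTL1. Replicates 2 to 4 were below all PBS libraries, and the log2 fold change was -0.10 (SE 0.05, edgeR adjusted p = 0.332). It was -0.04 without rFSTL1 replicates 3 and 4 and -0.04 with the length and GC trend removed. Psmf1, the inhibitor PI31, had a log2 fold change of 0.03.

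The thymus subunit Psmb11 was at 0, 0, 2 and 0 counts with PBS and at 1, 0, 0 and 1 counts with rFSTL1, all under the floor of 3 counts, and was not tested. Psme2b, a close relative of Psme2 by name, stood at 4.37, 3.54, 5.33 and 5.78 CPM with PBS and at 3.94, 4.19, 4.55 and 4.52 CPM with rFSTL1. The PBS libraries spanned the rFSTL1 libraries, and the log2 fold change was -0.14 (SE 0.16, edgeR adjusted p = 0.709), or -0.22 without rFSTL1 replicates 3 and 4. It ran from -0.258 to -0.0449 with 1 library left out. Counts of Psme2, Psme2b, Psmb7 and Psmc3ip were not whole numbers in any of the 8 libraries. Those of Psmd1, Psmb9, Psmg3 and Psmd13 were not whole in 7, 5, 2 and 1 libraries. The share of reads between Psme2 and Psme2b is uncertain, and how reads of the others were shared is not stated. Psmc3ip, a meiotic recombination factor, and Psme3ip1 had log2 fold changes of 0.11 and -0.01.

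Cofactors and the ubiquitin system were followed through a list of 29 genes, of which 28 were tested. None had an adjusted p under 0.05 by edgeR, 1 was higher and 2 were lower at an unadjusted p under 0.05 (8.29% and 7.56% of all tested genes were), and the median log2 fold change was 0.01. Zfand5, which encodes an activator of the whole proteasome, stood at 68.3, 75.3, 69.5 and 77.5 CPM with PBS and at 65.7, 66.3, 67.1 and 64.1 CPM with rFSTL1. All rFSTL1 libraries were below all PBS libraries, with a log2 fold change of -0.14 (edgeR adjusted p = 0.212).

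Adrm1, the ubiquitin receptor of the base, stood at 78.9, 82.4, 83.0 and 77.5 CPM with PBS and at 84.5, 84.6, 87.6 and 95.6 CPM with rFSTL1. Its groups did not overlap either, with a log2 fold change of 0.13 (edgeR adjusted p = 0.239). In 3 of the 28 tested genes of this list the groups did not overlap, beside 8.16% of all tested genes. The third was Ube3c, lower with rFSTL1, with a log2 fold change of -0.08 (edgeR adjusted p = 0.346). Pomp, the maturation chaperone of the core, stood at 98.9, 95.3, 96.4 and 87.8 CPM with PBS and at 100.3, 108, 99.5 and 92.1 CPM with rFSTL1, a log2 fold change of 0.08 (edgeR adjusted p = 0.495). Sem1, the smallest lid protein, stood at 86.0, 80.3, 76.0 and 78.7 CPM with PBS and at 82.0, 99.6, 83.3 and 80.3 CPM with rFSTL1. One library, rFSTL1 replicate 2, was far above the rest for Sem1, and the log2 fold change was 0.11 (edgeR adjusted p = 0.445).

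Within the rFSTL1 group, replicates 3 and 4 were both above the other 6 libraries in 9 of 49 members (18.4%) and both below them in 7 (14.3%), beside the 14.5% and 15.5% of all tested genes. On the log2 scale the mean of replicates 3 and 4 minus that of replicates 1 and 2 reached 0.26 for Psmf1, 0.22 for Psmd3 and 0.18 for Psmg4 at the upper end, and -0.26 for Psmg3, -0.19 for Psmc6 and -0.16 for Psma3 at the lower end. These genes are named for their position in this list, after their values were seen.

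The difference went with base composition among the members too. Transcript GC content was 37.0% for Psmc6, the lowest of the members, and 55.8% for Psmb6, 55.1% for Psmg4, 56.6% for Psmb5 and 56.5% for Psmb10. It was highest for Psmd3, at 58.3%. Psmg3 (56.3%) and Psmb9 (55.3%) had negative log2 fold changes of -0.05 and -0.04. Their values for replicates 3 and 4 minus 1 and 2 were -0.26 and -0.04, and that of Psmb5 was -0.03. Across the 49 tested members, Pearson's r of GC content with this difference was 0.50 and Spearman's rho 0.54, and with the fold change between groups r was 0.60 and rho 0.58. Over all 10719 genes with a transcript model, r was 0.63 and rho 0.67 with this difference, and 0.40 and 0.54 with the fold change. The points are genes of the same libraries, and no p is given. The part of base composition in the fold changes was not tested beyond removing its trend. That removal cannot separate it from a treatment difference that goes with GC content or length. With the trend removed the median log2 fold change of the members was -0.0034, 0 members were called, and 0.886% of all genes were called by edgeR.

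**Figure D5:**
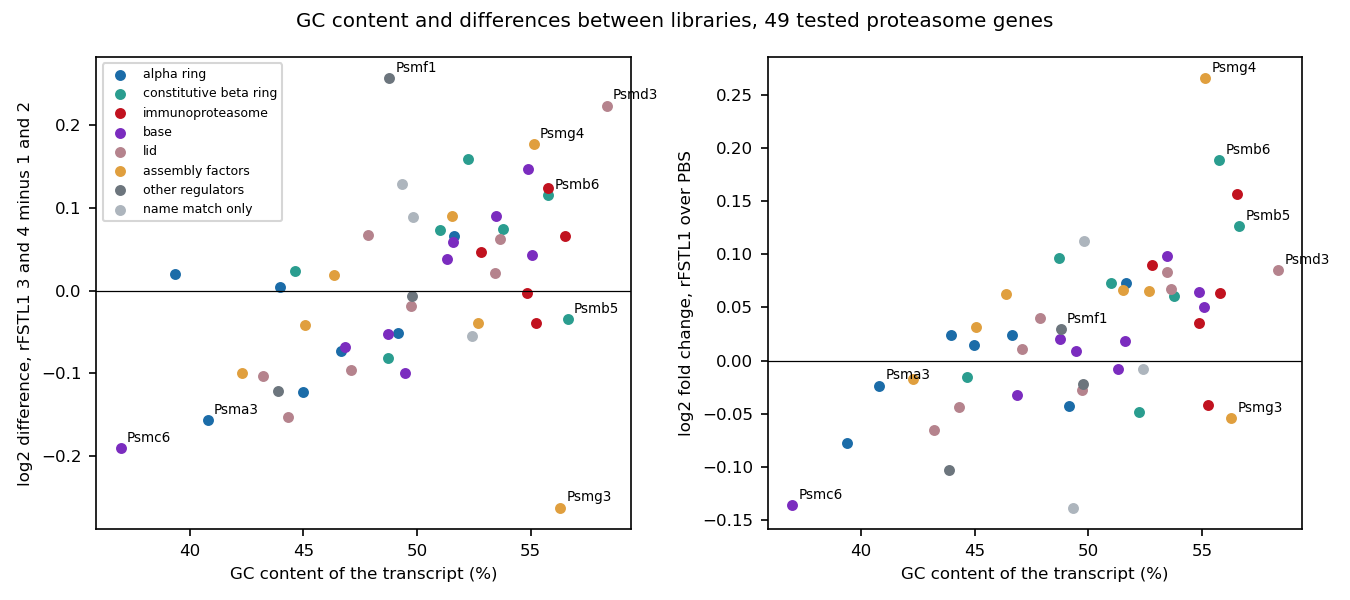
GC content of the transcript of each tested member in percent against the log2 difference between rFSTL1 replicates 3 and 4 and replicates 1 and 2 (left), and against the log2 fold change of rFSTL1 over PBS (right); colours give the classes. Both rise with GC content, with Psmc6 at 37.0% and Psmb6 and Psmg4 above 55%, and Psmg3 at the lower right is an exception in both.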

How the data were processed

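Poly(A) RNA of RAW264.7 cells was sequenced on an Illumina instrument. The authors deposited 1 table of estimated counts per gene for the 8 libraries, and 13.0% of its values above 0 were not whole. The submitters' processing notes name Bowtie2 2.2.8, HISAT2, StringTie 1.3.1 and DESeq2, without roles; genome build and annotation are not given in the sources used here. Counts were rounded, genes were filtered with filterByExpr (minimum count 10), scaled by TMM and tested with edgeR 4.0.16 in R 4.3.3 (quasi-likelihood, two-sided, Benjamini-Hochberg over 10748 genes, threshold 0.05). The 112 entries without a symbol could not be members. CPM are counts divided by the TMM-scaled library size. Exact permutation tests (two-sided) used log2(CPM + 1) over 70 assignments, so the smallest p was 0.0286. Levels per kb used 1 GENCODE vM21 transcript per gene. Members and gene lists were chosen with earlier results of these data known. Fully described were members past the threshold, the 6 with the smallest p, the 3 highest and 3 lowest fold changes, the catalytic, PA28 and tissue-restricted genes, and, from the 2 partner lists, the 4 with the smallest p with Pomp, Adrm1, Sem1 and Nfe2l1. Alternatives, among them DESeq2 1.42.0 and limma 3.58.1, numbered 19. The edgeR code was tested on simulated data. Intervals and floors cover counting error or library spread only, as there were no molecular identifiers. Of the partner list Paaf1 was not analysed here. Another partner gene is not reported here.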

Additional observations from a re-analysis of the deposited data

Results flagged for a closer look

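A library far from the other 3 of its group was found in 6 of 92 groups of 4 values, where chance gives about 1 in 20, or 4.6. Psmg4 in PBS replicate 3 was at 13.4 CPM, with the other PBS libraries between 14.19 and 14.28. Psmb5 in PBS replicate 3 was at 87.7 CPM, with the others between 81.7 and 82.4. Psmb11 in PBS replicate 3 was at 0.0987 CPM, which is 2 counts, with the others at 0. Sem1 in rFSTL1 replicate 2 was at 99.6 CPM, with the others between 80.3 and 83.3. The mean level of the base ATPases in PBS replicate 4 was 97.1 CPM per kb, with the others between 101.6 and 102. The median log2 level of the alpha ring genes relative to the PBS mean was -0.0535 in PBS replicate 3, with the others between 0.0084 and 0.0152.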

How the results depend on the processing

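Over all tested genes, the 37 calls became 56 with upper-quartile scaling, 127 with all genes that had a count, 192 with DESeq2 (126 higher, 66 lower), 454 with limma voom (244 higher, 210 lower), 95 with the length and GC trend removed (79 higher, 16 lower), 86 with the replicate block added to that (77 higher, 9 lower), 133 at a threshold of 0.1, and 11 to 99 with 1 library left out (99 without rFSTL1 replicate 1). Called members numbered 1 with DESeq2, 2 with limma voom, 1 at a threshold of 0.1 and 0 to 1 with 1 library left out. Called partners numbered 1 with all genes that had a count, 1 with DESeq2 and 1 at a threshold of 0.1 (H2-K1), 2 with limma voom (H2-D1 and H2-K1), 1 with the trend removed and 1 with the block added (B2m), and 0 to 2 with 1 library left out. The median log2 fold change of the members was -0.0034 with the trend removed, -0.0016 with the block added and 0.0048 to 0.0353 with 1 library left out. That of the base and lid was -0.0095, -0.0104 and -0.0137 to 0.0327, and that of the immunoproteasome -0.0198 with the block added and 0.0238 to 0.112 with 1 library left out. The 20S core ran from 0.0008 to 0.0439 with 1 library left out. With the trend removed, the log2 fold changes of Psmb5, Psmc6, Psmb8, Psme1 and Psme2 were -0.0054, 0.0104, -0.0190, -0.0630 and -0.00051, and with the block added -0.0060, 0.0094, -0.0198, -0.0621 and -0.00013. Psmb9 ran from -0.0966 to 0.0293 with 1 library left out and was above 0 without PBS replicate 4 (0.0293) or rFSTL1 replicate 3 (0.0185). The cause was not tested. Of 252 refits of the 14 named members, 236 kept direction and call (Psmb9 and Psme2b had no adjusted p in DESeq2 and are counted by direction there), 4 gained a call and 12 turned in sign. Leaving out rFSTL1 replicates 3 and 4 (34 calls, 0 members) and removing the trend were chosen after seeing the data. The replicate block gave 41 calls and 0 members (Psmb6 0.19, adjusted p = 0.133 by edgeR), and same-numbered libraries correlated at -0.09 to 0.08. The labels do not state pairs. These correlations cannot decide it, because differences within the rFSTL1 group could hide a shared effect. Replicates differed by more than sampling noise (chi-square per degree of freedom 3.035 to 19.15).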
